A study of Nicotiana benthamiana with 9 samples.

Results

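In leaves of Nicotiana benthamiana, a relative of tobacco used as a laboratory host plant, 70 of 56094 assembled genome sequences (0.125%) gave more RNA both after heat and after wounding. They comprised 63 scaffolds and 7 contigs, which are stretches of assembled genome and not genes. Of the 56094 sequences, only 16276 had a count in any library. The members were chosen from measured values. With M, H and W as the mock, heat and wound means and 0.5 added to each mean, H/M and W/M both had to be at least 2. H and W also had to be at least 2, and every heat and every wounded library had to lie above every mock library.

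The study measured RNA in 3 groups of 3 libraries, all from leaves of 5-week-old plants grown in soil. Mock plants stayed at 23 °C for 1 h with no wound, heat-treated plants were put at 37 °C for 1 h, and wounded plants were cut with scissors before 1 h at 23 °C. The labels name no genotype or cultivar and do not say how many plants made up a library, and the series calls the libraries of a group biological replicates. Total counts ran from 13846165 to 17480792 per library. Levels below are scaled CPM, the values of the authors' columns headed CPM: a count divided by a constant of its library, on a scale near that of CPM.

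Plants answer heat through heat shock transcription factors, which turn on chaperones that keep other proteins folded. Wounding acts through calcium and reactive oxygen signals and through the hormone jasmonate, which turns on defence genes. Some stress genes are known to respond to both kinds of stimulus. Which genes lie on the 70 sequences is not stated here, because the table pairs no sequence with a gene, so no chaperone, jasmonate or cell type marker could be looked up and no nucleotide sequence is shown. A long scaffold pools its genes: heat and wounding may have raised the same gene or different genes on it, and these cannot be told apart. In whole leaves, more cells of a type and more RNA per cell cannot be told apart either.

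Because heat and wounding share the mock libraries, the count of 70 is what the rule fixes and not a measure of agreement. The heat conditions alone were met by 1060 of the 56094 sequences, and the 70 members were 6.6% of these. The wounding conditions alone were met by 318 of the 56094, and the 70 were 22.0% of these. All 70 passed the filter on low counts and were tested. The rule used heat against mock and wounding against mock, so calls in those contrasts largely follow from it and are only a description. There, edgeR's quasi-likelihood test called 27.4% and 9.86% of the 9645 tested sequences higher. Among the members it called all 70 higher after heat than in mock and 69 higher after wounding. The exception was Niben101Scf14333 after wounding (adjusted p = 0.0504).

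The members covered a wide range of levels. Their mock means ran from 0.0589 to 308.8 scaled CPM with a median of 7.03, against a median of 24.1 over all tested sequences. Heat means ran from 2.22 to 2077 with a median of 29.6, and wound means from 2.55 to 787 with a median of 28.9. In 11 members both treated means were at least 100, and in 8 both were under 10. Together the members took 0.22% ± 0.0377 of the count in mock libraries, 0.932% ± 0.105 after heat and 0.613% ± 0.0974 after wounding (SD, n = 3). The 3 heat libraries (0.869% to 1.05%) lay above the 3 wounded libraries (0.523% to 0.717%), a difference of 0.319 percentage points. The two-sided exact permutation p was 0.1, the smallest that 3 against 3 libraries can give. Most of that gap lay on few sequences: without the 3 most abundant members it was 0.0747 percentage points, the groups overlapped and the exact permutation p was 0.3.

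**Figure D1:**
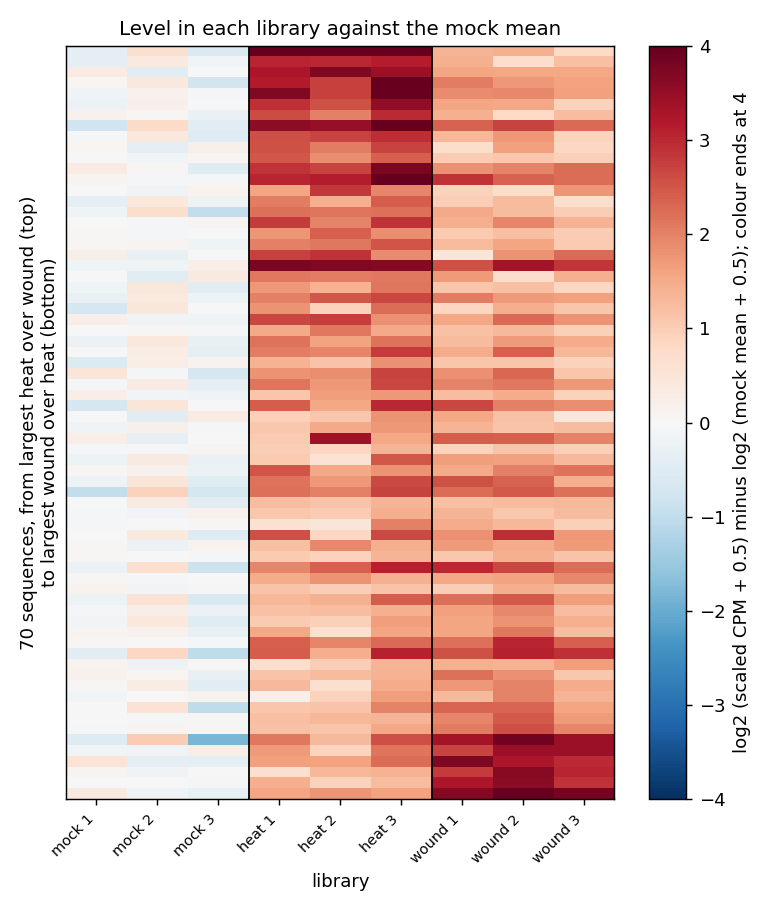
Each row is a member and each column a library; colour gives log2 of its scaled CPM (0.5 added) minus log2 of its mock mean (0.5 added), from blue (lower) to red (higher). Rows run from the largest excess of heat over wounding at the top to the largest excess of wounding over heat at the bottom, and heat replicate 3 is the highest heat library in 54 of the 70 rows.

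Responses to heat were spread more widely than responses to wounding. Heat ratios ran from 2.05 to 32.3 with a median of 4.07, and wounding ratios from 2.01 to 14.7 with a median of 3.18. The heat ratio was the larger in 42 members and the wounding ratio in 28. In 35 members the ratios lay within 1.5 times of each other and in 50 within 2 times. Heat exceeded wounding by more than 2 times in 14 members, and wounding exceeded heat by more than 2 times in 6. A heat ratio of at least 10 was seen in 7 members and a wounding ratio of at least 10 in 3, and no member reached 10 in both.

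**Figure D2:**
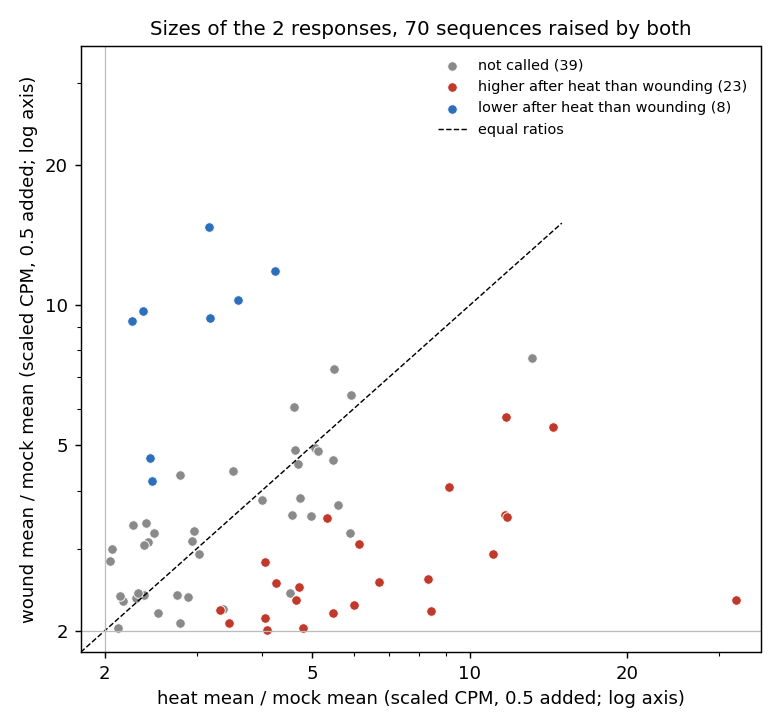
Each point is a member, with its heat to mock ratio on the horizontal and its wound to mock ratio on the vertical log axis (scaled CPM, 0.5 added to each mean), coloured by the direct test of heat against wounding. The 8 members lower after heat lie at wounding ratios of 4.2 to 14.7 and heat ratios of 2.25 to 4.24, and the 23 higher after heat lie at heat ratios of 3.33 to 32.3 and wounding ratios of 2.01 to 5.74; grey lines mark the ratio of 2 that the rule asks for.

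Heat and wounded libraries were then compared directly, a contrast that the rule did not use, although the same libraries chose the members. Of the 70 members, 23 were higher after heat than after wounding (32.9%), 8 were lower (11.4%) and 39 were not called (edgeR's quasi-likelihood test, Benjamini-Hochberg adjustment over all 9645 sequences, adjusted p under 0.05). Over all tested sequences 26.7% were higher and 25% were lower. In this setting the share of members higher after heat was near that of all tested sequences, while the share lower was below it. That pattern did not hold in every setting. With no filter, 31 of the 70 members were higher and 13 lower, where 16.7% and 15.8% of all tested sequences were called. The differences between these shares were not tested. Upper-quartile scaling moved the median heat to wound log2 ratio of all tested sequences from -0.02 to -0.14. The members then split into 19 higher (27.1%, against 22.5% of all tested sequences) and 12 lower (17.1% against 31.7%). The median fitted heat to wound log2 ratio was 0.24 over members, with quartiles of -0.34 and 0.94.

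A difference of at least 2-fold was called for 16 members (22.9%) on the heat side, against 12.8% of all tested sequences. On the wounding side it was called for 6 members (8.57%), against 9.71%. Every heat library lay above every wounded library in 23 members (32.9%, against 29.4% of all tested sequences). Every wounded library lay above every heat library in 9 (12.9% against 30.8%), and the libraries overlapped in 38. Of the 39 members that were not called, 20 had a 95% interval of the fitted heat to wound log2 ratio within 1 unit of 0 on either side, so differences of 2-fold or more lay outside their interval. The intervals of the other 19 reached past 1 unit, so for these a 2-fold difference in at least 1 direction lay within the interval.

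**Figure D3:**
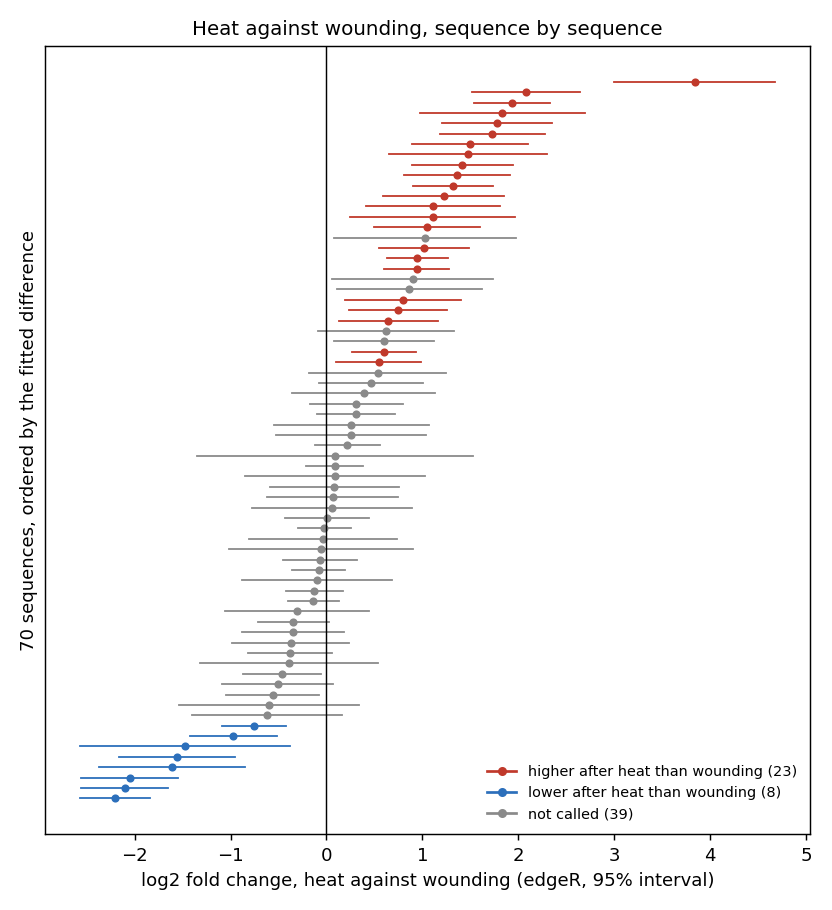
Each line is a member, with its fitted heat to wound log2 ratio (point) and 95% interval (bar) from edgeR, ordered by size. Fitted values run from -2.21 to 3.84, and 1 member stands apart at the heat end.

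Niben101Scf14333 (positions 1 to 156939) had the most uneven response on the heat side. Its mock libraries held 6.9, 14.9 and 6.12 scaled CPM, its heat libraries 364, 166 and 417, and its wounded libraries 24.6, 25.8 and 16.4. All 3 heat libraries stood far above the rest, while the lowest wounded library was close to the highest mock library. Its mean rose to 315 ± 132 after heat and was 22.3 ± 5.16 after wounding, against 9.29 ± 4.83 in mock (SD, n = 3). The fitted heat to wound log2 ratio was 3.84 ± 0.383 (SE, edgeR adjusted p = 8.5e-06). Next on that side was Niben101Scf13907 (positions 1 to 30613). Its mock libraries held 0.967, 2.03 and 1.3 scaled CPM, its heat libraries 15.5, 15.2 and 16.6, and its wounded libraries 4.68, 2.67 and 3.94. The heat libraries of this scaffold lay close together and none overlapped another group. Its fitted heat to wound log2 ratio was 2.08 ± 0.258 (SE, edgeR adjusted p = 4.42e-05).

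On the wounding side Niben101Scf10535 (positions 1 to 244799) came first. Its mock libraries held 25.5, 17.5 and 15.7 scaled CPM, its heat libraries 59.8, 68.3 and 61.1, and its wounded libraries 256, 344 and 283. The groups were separate, in the order mock, heat, wound. Its wounding ratio of 14.7 was the highest of the members, its heat ratio was 3.17, and the fitted heat to wound log2 ratio was -2.21 ± 0.166 (SE, edgeR adjusted p = 9.12e-07). Niben101Scf14741 (positions 1 to 123854) followed the same order at a lower level. It held 2.39, 2.39 and 2.3 scaled CPM in mock, 7.41, 4.93 and 6.45 after heat and 26.7, 34.5 and 20.8 after wounding. Its mock libraries differed little, and its heat libraries rested on 65 to 107 counts each. The fitted heat to wound log2 ratio was -2.1 ± 0.209 (SE, edgeR adjusted p = 8.1e-06).

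Of the 8 members on the wounding side, 6 lay together by size: their wounding ratios were 9.25 to 14.7, above the 7.7 of the next member, and their heat ratios were 2.25 to 4.24. The others of the 8 were Niben101Ctg14686, named after its values were seen, with ratios of 4.71 for wounding and 2.44 for heat, and Niben101Scf02279, with 4.2 and 2.46. Among the 8, Niben101Scf12039 (positions 1 to 10611) was singled out after its values were seen. Its mock libraries held 4.84, 15.04 and 1.65 scaled CPM, its heat libraries 32.8, 18.5 and 44.9, and its wounded libraries 76.6, 112 and 83.0. Mock and heat libraries of this scaffold were nearly touching, at 15.04 and 18.5. It was lower after heat than after wounding with an adjusted p of 0.0272 (edgeR), and it lost that call in 6 of 18 alternative settings, while the other 7 kept theirs in every setting that tested them. Of these, 6 were tested in all 18, and Niben101Ctg11091 was not tested with a filter of 10 CPM.

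The most abundant member was Niben101Scf12154 (positions 1 to 288466). Its mock libraries held 298, 411 and 217 scaled CPM, its heat libraries 1829, 2001 and 2400, and its wounded libraries 772, 1022 and 568. No groups overlapped, and mock replicate 2 and wound replicate 2 were the highest of their groups. Its fitted heat to wound log2 ratio was 1.42 ± 0.241 (SE, edgeR adjusted p = 4.74e-04). Niben101Scf07309 (positions 1 to 169517) was next in abundance. It held 150, 85.4 and 119 scaled CPM in mock, 1121, 1554 and 1265 after heat, and 353, 345 and 343 after wounding. The coefficient of variation was 1.55% over its wounded libraries, 16.8% over its heat libraries and 27.4% over its mock libraries. The fitted heat to wound log2 ratio was 1.94 ± 0.181 (SE, edgeR adjusted p = 5.12e-06). The 3 most abundant members together took 43.7% to 45.5% of the members' count in heat libraries and 26.3% to 28.2% in wounded libraries.

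**Figure D4:**
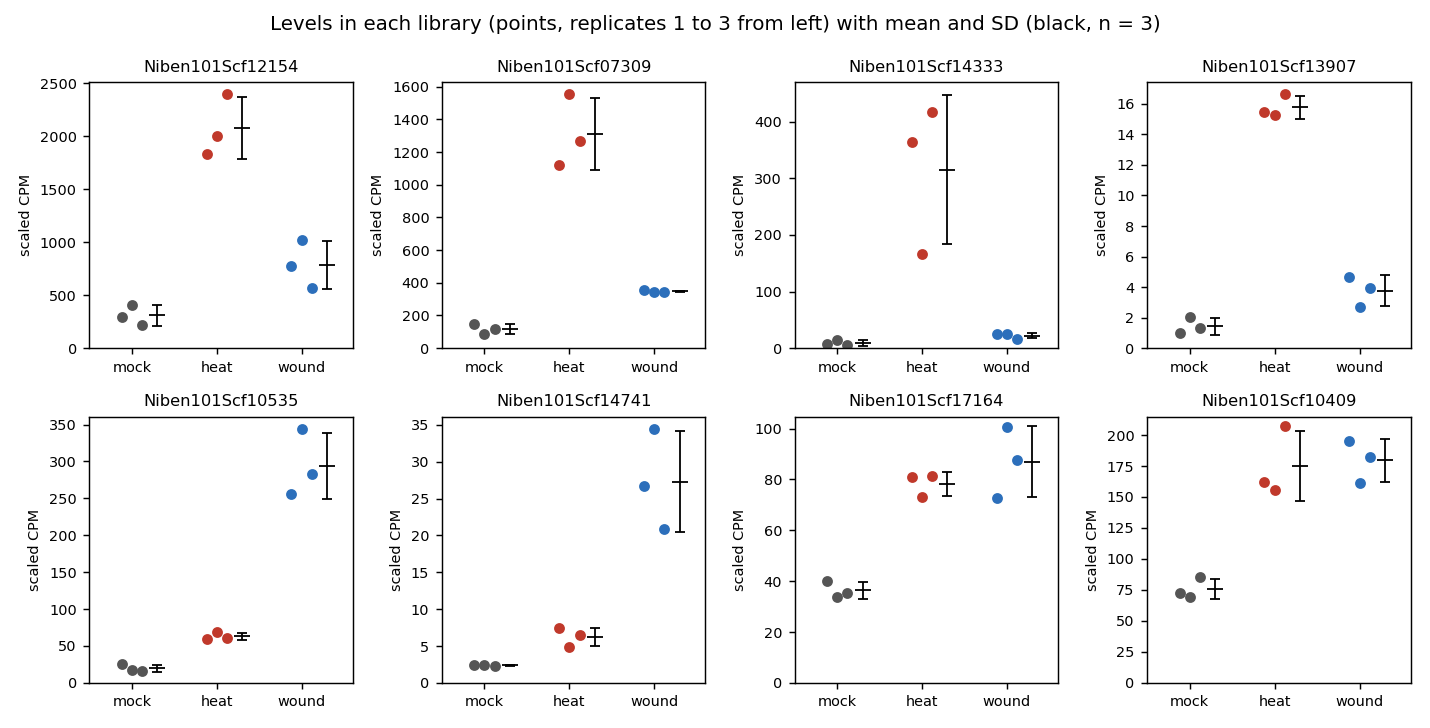
Points give the scaled CPM of each library for 8 members, with replicates 1 to 3 from left to right within a group and the mean and SD (n = 3) in black; vertical axes start at 0. The top row shows the 2 most abundant members and the 2 most uneven towards heat, and the bottom row the 2 most uneven towards wounding and 2 members with narrow intervals of the heat to wound log2 ratio that include 0.

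The 2 narrowest intervals of the heat to wound log2 ratio lying within 0.5 of 0 were those of Niben101Scf17164 (positions 1 to 192321) and Niben101Scf10409 (positions 1 to 364351). Both included 0, and other members had intervals nearly as narrow. Niben101Scf17164 held 40.2, 33.6 and 35.3 scaled CPM in mock, 80.8, 72.9 and 81.2 after heat and 72.6, 100.8 and 87.6 after wounding. Heat and wounded libraries overlapped, and both groups lay above mock. Its fitted heat to wound log2 ratio was -0.14, with a 95% interval of -0.4 to 0.13 (edgeR adjusted p = 0.37). Niben101Scf10409 held 72.7, 69.7 and 85.1 in mock, 162, 156 and 207 after heat and 195, 161 and 182 after wounding. Its fitted heat to wound log2 ratio was -0.02, with an interval of -0.3 to 0.25 (edgeR adjusted p = 0.893). In all, 7 members with at least 10 scaled CPM in both treated groups had an interval within 0.5 of 0.

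Large responses to both treatments were few. Both ratios reached 5 in 5 members, named here because of that count and after their values were seen: Niben101Scf06269, Niben101Scf07761, Niben101Scf01873, Niben101Scf16156 and Niben101Scf03204. Niben101Scf06269 (positions 1 to 203519) had 0, 0 and 3 counts in mock libraries, 98, 89 and 111 after heat and 43, 74 and 54 after wounding. With 3 mock counts in all, the ratio of summed counts, corrected by the library constants of scaled CPM, was 111 after heat (95% counting interval 37.7 to 543). The same ratio was 61.5 after wounding (20.7 to 301). With 0.5 added to each mean, as in the rule, the ratios were 13.2 for heat and 7.7 for wounding. Its heat libraries, at 6.69 to 7.12 scaled CPM, lay above its wounded libraries, at 2.8 to 5.07, but the direct test did not call it (fitted heat to wound log2 ratio 0.87 ± 0.347 SE, edgeR adjusted p = 0.0553). It was called in 7 of the 17 alternative settings that tested it, with adjusted p of 0.00422 to 0.176 over the 17.

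Niben101Scf16156 (positions 1 to 129317) had nearly equal ratios, 5.92 for heat and 6.4 for wounding. It held 4.45, 8.72 and 2.65 scaled CPM in mock, 22.1, 29.7 and 49.2 after heat and 46.5, 35.96 and 26.9 after wounding. The treated groups overlapped through most of their range, and the 95% interval of the fitted heat to wound log2 ratio was -0.88 to 0.69. Niben101Scf03204 had ratios of 5.5 for heat and 7.29 for wounding, and its heat libraries were 40.4, 20.1 and 62.7 scaled CPM. It was not called, and its 95% interval of the fitted heat to wound log2 ratio was -1.32 to 0.54. Niben101Scf07761 and Niben101Scf01873 were uneven towards heat, with heat ratios of 14.4 and 11.7 and wounding ratios of 5.49 and 5.74. Both were called higher after heat than after wounding (edgeR adjusted p = 0.00618 and 0.0125). Niben101Scf07761 kept that call in all 18 alternative settings, while Niben101Scf01873 lost it in 2 of the 17 that tested it.

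Few mock counts also lay behind Niben101Scf22689 (positions 1 to 17105), singled out after its values were seen. It had 6 mock counts in all. Ratios of summed counts, corrected by the library constants of scaled CPM, were 20.9 after heat (95% counting interval 9.31 to 58.2) and 20.7 after wounding (9.22 to 57.5). The ratios of the rule, with 0.5 added to each mean, were 5.13 and 4.87. Its heat libraries held 0.799, 5.99 and 1.33 scaled CPM, so heat replicate 2 carried most of its heat mean, while its wounded libraries held 2.86, 2.81 and 1.97. A total of 7 members had a mock mean under 1 scaled CPM.

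Near the threshold, the members just inside were Niben101Scf01555, with ratios of 4.09 for heat and 2.01 for wounding, and Niben101Scf04368, with 2.12 and 2.02. Just outside were Niben101Ctg13603, with 2.04 and 1.99, and Niben101Scf03060, with 1.98 and 2.3. These values are given to show where the line fell.

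The rule did not use sequence length. The members' median length was 178375.5 nt, against 193293 nt over all tested sequences, and lengths ran from 530 nt for Niben101Ctg01440 to 956876 nt for Niben101Scf02279. Under 2000 nt lay 6 members (8.57%, against 12.9% of tested sequences), from 2000 to under 20000 nt 8 (11.4% against 7.99%), from 20000 to under 200000 nt 27 (38.6% against 30.1%) and at 200000 nt or more 29 (41.4% against 49.0%). Contigs made up 10% of members and 14.2% of tested sequences. None of the 7 member contigs was called higher after heat than after wounding, 2 were called lower and 5 were not called. Over the 1370 contigs tested, 16.3% were called higher and 20.1% lower.

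The contigs are short enough that few genes can share a value. Niben101Ctg01440 held 7.54, 5.77 and 6.95 scaled CPM in mock, 11.2, 13.9 and 18.0 after heat and 18.8, 18.6 and 22.7 after wounding. Every wounded library was above every heat library, narrowly, and the direct test did not call it (fitted heat to wound log2 ratio -0.46 ± 0.187 SE, edgeR adjusted p = 0.0573). It was called in 6 of 18 alternative settings, with adjusted p of 0.016 to 0.237 over the 18. Niben101Ctg11091 (positions 1 to 1202), also singled out after its values were seen, was the only member under 2000 nt that the direct test called. It held 1.16, 0.368 and 0.353 scaled CPM in mock, 2.98, 2.96 and 4.76 after heat and 14.6, 10.2 and 8.47 after wounding (fitted heat to wound log2 ratio -1.61 ± 0.349 SE, edgeR adjusted p = 0.00235). At the other extreme of length, Niben101Scf02279 held 37.4, 35.8 and 38.0 scaled CPM in mock, 85.8, 94.2 and 95.7 after heat and 145, 205 and 121 after wounding. Its fitted heat to wound log2 ratio was -0.76 ± 0.153 (SE, edgeR adjusted p = 0.00152).

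The median spread between replicates was larger over the members than over all tested sequences. Among sequences with a group mean of 10 to under 100 scaled CPM, the median coefficient of variation of heat libraries was 30.1% over 42 members and 10.9% over 4239 tested sequences. In wounded libraries it was 22.2% over 38 members against 8.82%, and in mock libraries 17.5% over 21 members against 9.55%. Sequences that met the heat conditions but not those for wounding had 17.0% in heat libraries, and those that met the wounding conditions but not those for heat had 18.7% in wounded libraries. These medians are given side by side with no test, since sequences of the same libraries are not independent.

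Particular libraries were high for most members at once. Heat replicate 3 was the highest heat library for 54 of 70 members (77.1%), wound replicate 2 the highest wounded library for 40 (57.1%) and mock replicate 2 the highest mock library for 37 (52.9%). Over all tested sequences those shares were 33.7%, 37.1% and 39%. For the 990 sequences that met the heat conditions only, heat replicate 3 was highest in 43.9%, and for the 248 that met the wounding conditions only, wound replicate 2 was highest in 66.1%. Heat replicate 3 was highest for 17 of the 23 members called higher after heat, 6 of the 8 called lower and 31 of the 39 not called. Its level was a median of 1.35 times the mean of the other heat libraries over the members, and heat replicate 2 was at 0.761 times. What set these libraries apart was not tested, and the differences from the other sets were not tested either.

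**Figure D5:**
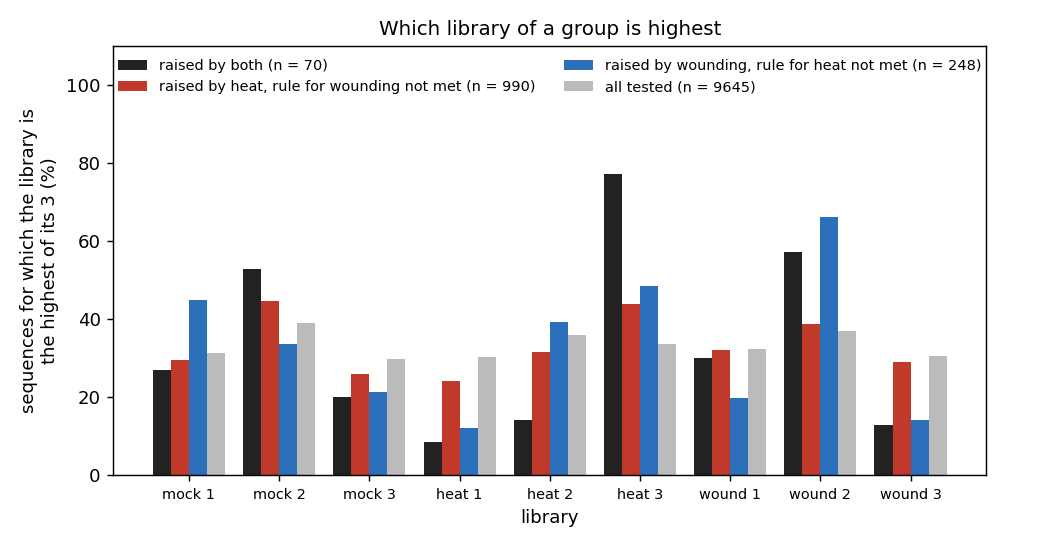
Bars give, for each library, the percent of sequences for which it is the highest of the 3 libraries of its group, for the 70 members (black), the 990 sequences meeting the heat conditions only (red), the 248 meeting the wounding conditions only (blue) and all 9645 tested sequences (grey). Heat replicate 3 is highest for 77.1% of members and 33.7% of all tested sequences.

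Every member had a ratio of at least 2 to the mock mean in heat replicate 3, against 64 in heat replicate 1 and 56 in heat replicate 2. Among wounded libraries that held for 63, 66 and 56 members in replicates 1 to 3. Without heat replicate 3 the median fitted heat to wound log2 ratio over members moved from 0.24 to 0.05. Then 20 members were higher after heat (28.6%, against 24.7% of all tested sequences) and 12 lower (17.1% against 21.2%). Without heat replicate 1 the median was 0.39, with 23 higher (32.9% against 24.3%) and 7 lower (10% against 20.4%).

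The rule was also applied to 8 libraries at a time and the library left out was then read, which gives the same measure in a library that played no part in the choice. With heat replicate 3 left out, 69 sequences were chosen, and that library lay above every mock library in 67 of them and reached a ratio of 2 in 63, with a median ratio of 4.43. With heat replicate 2 left out, 80 were chosen, and it lay above every mock library in 77 and reached a ratio of 2 in 55, with a median of 2.79. For wound replicate 3 the figures were 76 chosen, 74 above mock and 55 at a ratio of 2. Mock replicate 2 was the library most often on the wrong side: 93 sequences were chosen without it, and it lay below every treated library in 79. The smaller of the heat and wounding ratios to mock replicate 2 was at least 2 in 53, with a median of 2.14. The mock libraries kept in the choice are the same ones the reading uses, except where a mock library was left out, so these counts are descriptive. Of the 70 members, 52 were chosen in all 9 such settings, 8 were lost in 1 and 10 in 2 or more.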

How the data were processed

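RNA from leaves of 3 mock, 3 heat-treated and 3 wounded samples was counted per assembly sequence. Per the file headers, the authors deposited 1 table of 56094 sequences with 4 values per library: total counts, RPKM, TPM and values headed CPM. Not given in the sources used here are the aligner, the counting tool, strand handling, the treatment of reads with several matches and the build. The deposited CPM columns are a scaled signal, since each is the count divided by 1 constant per library and they sum to 909726 to 1068742. They are used here for the rule and for all levels. The deposited TPM values serve 1 alternative, and the deposited RPKM values were not used, because the length is that of a whole sequence and not of a gene.

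Counts were fitted as deposited with edgeR 4.0.16 in R 4.3.3: filterByExpr on the groups, TMM scaling and 1 quasi-likelihood model of the 3 groups over all 9 libraries. Benjamini-Hochberg adjustment ran over 9645 sequences. A standard error is the size of the log2 ratio over the root of its F statistic, and 95% intervals use the fit's moderated degrees of freedom. Ratios of summed counts are corrected by the library constants of the deposited CPM columns. Their counting intervals are exact binomial, and they cover counting error only. In 10 simulated tables of 9645 sequences, 200 were changed between heat and wounding. The test recovered 32.1% of changes of 1.5-fold, 66.7% at 2-fold and 86.5% at 4-fold, and 5.15% of calls were unchanged sequences. In the data 51.7% of tested sequences were called, and members varied more between replicates than tested sequences did. The simulated rates therefore do not give the recovery or false calls among the members.

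The members, and the rules that name some of them, were chosen with earlier results of these data known. Named were the 2 most abundant members, the 2 most uneven in each direction, the 2 with the narrowest heat to wound interval lying wholly within 0.5 of 0 (log2), the 2 largest joint responses with a mock count, the 2 nearest the threshold on each side, and the longest and shortest. Others named are said to be chosen after their values were seen. No gene or marker list could be applied, since the table names no genes. Alternatives were other scalings, filters, tests (DESeq2 1.42.0, limma 3.58.1 on log2(TPM + 1)), a replicate block and leaving out each library.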

Additional observations from a re-analysis of the deposited data

How the results depend on the processing

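The rule gave 70 members. A minimum ratio of 1.5 gave 203 and a minimum of 3 gave 27, by construction; with each library omitted in turn there were 67 to 93, and the other 6 alternatives of the rule gave 49 to 78. The direct test was repeated under 18 settings. Members higher after heat than after wounding numbered 19 to 31 and members lower 7 to 13 over these. The shares of all tested sequences moved too, from 16.7% to 30% higher and from 15.6% to 31.7% lower. With no filter the members called were 31 and 13, where 16.7% and 15.8% of all tested sequences were called. An adjusted p under 0.01 left 17 higher and 7 lower, where 20.9% and 17.5% of all tested sequences were called. A 2-fold minimum left 16 (22.9%) and 6 (8.57%), against 12.8% and 9.71% of all tested sequences. No member changed to the opposite call, and 24 of the 31 called members kept their call in every setting that tested them, 22 of them in all 18; 4 of the 31 were not tested in every setting. With each library omitted in turn, the direct test gave 19 to 25 members higher and 7 to 12 lower. Of all tested sequences, 23.4% to 28.1% were called higher and 20.4% to 24.1% lower in those settings. The median heat to wound log2 ratio over members was 0.05 to 0.39. The members' share of the count after heat exceeded that after wounding by 0.258 to 0.371 percentage points when 1 library was left out. Without the 3 most abundant members, an alternative chosen after seeing the data like the reading of left-out libraries, it was 0.0747, since those members hold much of the count. Correlations of same-numbered libraries' deviations from their group means lay between -0.144 and 0.109 over all tested sequences. Whether same-numbered libraries shared a batch was not tested. With the replicate block 21 members were higher and 8 lower, where 25.1% and 23.3% of all tested sequences were called. The cause of the other shifts was not tested. Depth limits the members with few mock counts, and members without a call are not thereby equal in response.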
